A study of Arabidopsis thaliana with 18 samples.

Results

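Fructose and glucose are hexoses of the same composition that differ in the position of their carbonyl group, glucose being an aldose and fructose a ketose. Leaf discs of the Arabidopsis thaliana ecotype Col-0 that had been kept in fructose were compared here with discs kept in glucose, across all genes with enough reads. The discs were cut from mature rosette leaves of plants 4 weeks old, grown in soil in short days (10 h of light, 14 h of darkness, 21 °C), and kept overnight in MS medium holding 1% fructose or 1% glucose. A further set of discs in 1% mannitol, an osmotic control, shared the same fit and is given as a level only. Each group held 3 libraries, so that 6 of the 18 libraries of the series entered the comparison and 3 more set the level without an added hexose. Through the shared fit the mannitol libraries also entered the gene filter, the scaling and the estimate of spread behind its p-values. No group carried a transgene or a mutation, the discs were whole leaf tissue with all of its cell types, and both hexose groups shared the cutting, the night in medium and the sugar percentage. The labels number the libraries of a group as biological replicates. Whether these stem from different plants is not stated, and each p-value therefore reflects only how these samples spread.

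Sugars feed metabolism and are also read as signals. Hexokinase senses glucose and is known to repress photosynthesis genes when sugar is plentiful, whereas the kinases SnRK1 and TOR report shortage and plenty. Fructose has been linked to a fructose 1,6-bisphosphatase, FINS1, and to the transcription factor ANAC089. Much of the hexose of a leaf cell lies in the vacuole, and carriers of the vacuolar membrane, among them ERDL4 on which the series centres, set how much of it reaches the cytosol.

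Discs in fructose and glucose differed in a large share of their transcripts. The test covered 18784 genes, and 4646 of them (24.7%) were called higher and 4623 (24.6%) lower at an adjusted p under 0.05 (edgeR quasi-likelihood test, Benjamini-Hochberg adjustment), which puts 49.3% of all genes past the threshold. The 38 gene lists used here hold 725 entries, of which 656 had enough reads to be tested. They were written by hand with earlier results of these data known. Counts of their members, and of motifs in their promoters, therefore describe these data and give no independent support. At least 2-fold changes were called for 1975 higher (10.5%) and 1226 lower genes (6.53%), and at least 4-fold changes for 516 and 248. All 3 fructose libraries lay above all 3 glucose libraries for 30.1% of genes and below them for 30.8%. A further view of size came from the 95% interval of the log2 fold change, which lay wholly between -0.5 and 0.5 for 23.9% of genes. Each count of list members given here stands against these shares, and a list near them is no result about the list. The median log2 fold change of all genes was 0.01, and a change of scaling moved it by -0.05 to 0.05.

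The libraries were of like depth, with 19129210 to 25306880 counts in fructose and 19411820 to 21236274 in glucose. On the leading principal component of log2 CPM (the TMM-scaled share of a library's counts), which held 76.2% of the variance of the 9 disc libraries, the fructose libraries stood at 33.4, 53.6 and 19.8, the glucose libraries at 118, 88.0 and 103, and the mannitol libraries at -142, -142 and -132. Fructose replicate 2 lay nearest to glucose and glucose replicate 2 nearest to fructose on this component and on the next one. Counts over all genes and over the lists were also taken without each library in turn. A library is named where its removal ended a call or moved such a count by over 1.5 times. The gene families under other observations were not counted this way.

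Markers of leaf cell types were checked first, since a disc is a mix of cells and a bulk library cannot tell fewer cells of a type from less RNA per cell. The 4 mesophyll markers summed to 5348, 3236 and 5747 CPM in fructose and 269.8, 1089 and 318 CPM in glucose. They are photosynthesis genes, so this sum moves with the photosynthesis lists themselves. The 7 guard cell markers summed to 191, 208 and 207 CPM in fructose and 297, 231 and 242 CPM in glucose, with 3 members called higher and 2 lower, counts that were each 1 without glucose replicate 2 or fructose replicate 3, the lower one also without any other library except glucose replicate 3. The 5 phloem markers, 2 of them called higher, summed to 330.1, 255 and 357 CPM in fructose and 219, 273 and 243 CPM in glucose, and of the 2 xylem markers XCP1 alone was called, at 1.00 ± 0.17, and both were without fructose replicate 2. The 6 epidermis markers summed to 1287, 1174 and 1997 CPM in fructose and 214, 950.2 and 251 CPM in glucose. Of the 5 of these tested 3 were called higher, among them ATML1, a homeobox factor of the epidermis, at 0.61 ± 0.11 and CUT1, a wax enzyme, at 1.56 ± 0.41 (log2 fold change ± SE), a call that was lost without fructose replicate 3. All 5 were called without glucose replicate 2. The flower marker AG was near 0 in all discs, and the 3 seed storage markers were listed at 0. The part of the cell mix in the differences below was not tested.

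Light harvesting genes had the highest median difference of the 38 lists. Antenna proteins bind chlorophyll and pass light energy to the reaction centres of photosystems I and II. Of 50 tested genes for antenna proteins, photosystem subunits and electron transport, 47 were higher in fructose and 0 lower, against 24.7% of all genes higher, and the median log2 fold change was 2.82. In all 50 genes every fructose library exceeded every glucose library. The 3 that did not pass the test were LHCB1.4 at 2.90 ± 1.08, LHCB4.3 at 0.72 ± 0.28 and LHCB7 at 0.57 ± 0.23, and these 3 were picked out after their values were seen. Each passed without glucose replicate 2, and LHCB4.3 also without fructose replicate 2.

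LHCB2.3 (AT3G27690; TAIR10.1 chromosome 3, 10255906 to 10257489, plus strand), a subunit of the trimeric antenna of photosystem II, had the highest log2 fold change among the genes named by rule. It held 273, 92.4 and 257 CPM in fructose and 2.77, 23.7 and 2.85 CPM in glucose. The groups did not overlap, although fructose replicate 2 was the lowest of its group and glucose replicate 2 the highest of its own. The difference was 4.40 ± 0.93 (log2 fold change ± SE, edgeR adjusted p = 0.00635), and the mannitol discs held 1621, 1534 and 780.2 CPM. The fructose level thus lay between glucose and mannitol.

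The other trimer subunits went the same way. LHCB3 held 1656, 903 and 2114 CPM in fructose and 33.0, 334 and 78.8 CPM in glucose, a difference of 3.39 ± 0.81, and LHCB1.1 differed by 3.66 ± 0.78. LHCB1.2, LHCB1.3 and LHCB2.2 differed by 3.57 ± 0.93, 3.27 ± 0.80 and 3.19 ± 0.84. LHCB1 genes are near-identical copies, so that reads may be split among them and the level of each copy is uncertain. Among monomeric antenna proteins LHCB4.2 differed by 3.38 ± 0.66 and LHCB5 by 3.22 ± 0.66, and in photosystem I LHCA2 differed by 3.16 ± 0.76. Without fructose replicate 3 the calls of LHCB1.2 and LHCB2.2 were lost, at adjusted p of 0.0505 and 0.0548 by edgeR.

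Subunits with steadier replicates passed with smaller folds. PETC, the Rieske protein of the cytochrome b6f complex, held 171, 124 and 181 CPM in fructose and 33.6, 56.8 and 42.4 CPM in glucose, a difference of 1.84 ± 0.22 (edgeR adjusted p = 0.000851). The ATP synthase subunit gene ATPC1 differed by 1.97 ± 0.30 and the photosystem II subunit gene PSBY by 2.101 ± 0.30. LHCA5, a rare antenna protein of photosystem I, differed by 0.78 ± 0.11. Outside the list, the thylakoid protein genes PnsL1 (NAD(P)H dehydrogenase complex) and PTAC16 were among the 15 highest, at 3.33 ± 0.52 and 3.19 ± 0.50.

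Sequence upstream of these genes was read because the members move together. Promoters were taken as the 250 bases before the annotated gene start in TAIR10.1 and searched on both strands for 2 motifs known from light-regulated plant promoters, the G-box CACGTG and the I-box GATAAG. The G-box was in 10 of 50 members (20%), against 7.42% of the promoters of 18644 tested genes, and the I-box in 12 (24%), against 12.4%. LHCB2.3 and LHCB4.2, a monomeric antenna gene whose window overlaps 1 other annotated gene, hold a match each, shown 5′ to 3′ with the G-box (LHCB2.3, chr3:10255656-10255905, plus strand) and the I-box (LHCB4.2, chr3:2717307-2717556, plus strand) in capitals. A match is a run of letters and not a shown binding site.
LHCB2.3: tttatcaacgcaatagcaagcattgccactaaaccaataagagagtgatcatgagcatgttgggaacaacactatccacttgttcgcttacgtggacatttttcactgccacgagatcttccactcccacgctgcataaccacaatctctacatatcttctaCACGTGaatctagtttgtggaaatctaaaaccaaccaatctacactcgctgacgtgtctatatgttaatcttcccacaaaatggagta
LHCB4.2: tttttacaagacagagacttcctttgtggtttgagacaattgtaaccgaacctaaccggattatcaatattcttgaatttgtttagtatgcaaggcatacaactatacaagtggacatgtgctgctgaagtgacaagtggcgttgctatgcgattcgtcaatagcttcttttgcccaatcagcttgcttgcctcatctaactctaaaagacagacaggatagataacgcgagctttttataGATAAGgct

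**Figure D1:**
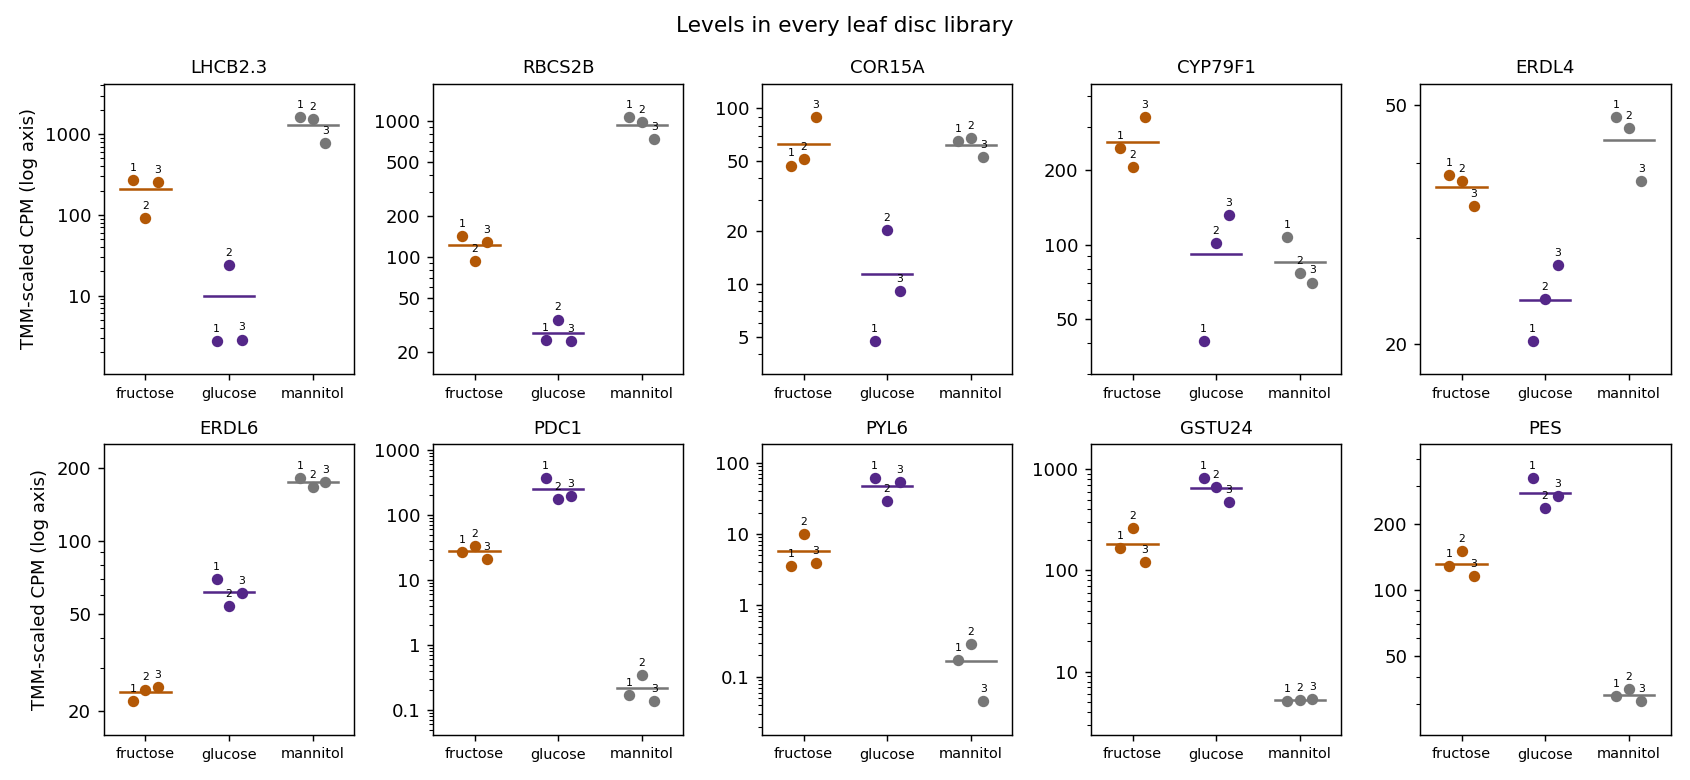
TMM-scaled CPM on a log axis for 10 genes in the 3 fructose, 3 glucose and 3 mannitol libraries. Numbers mark the replicate and bars the group mean. In each of the 10 panels the 3 fructose libraries lie apart from the 3 glucose libraries, for LHCB2.3 between 92.4 and 273 CPM in fructose against 2.77 to 23.7 CPM in glucose.

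Carbon fixation followed. Of 23 tested Calvin cycle genes 19 were higher in fructose and 0 lower (median 2.08). The Rubisco small subunit gene RBCS2B held 143, 93.6 and 128 CPM in fructose and 24.3, 34.4 and 24.1 CPM in glucose without overlap, a difference of 2.14 ± 0.21 (edgeR adjusted p = 0.000572), while RBCS1A differed by 2.98 ± 0.62. Small subunit genes share long stretches, so each copy's level is uncertain. RCA, which reactivates Rubisco, differed by 2.43 ± 0.41, the glyceraldehyde phosphate dehydrogenase gene GAPA2 by 3.15 ± 0.62, the regulator CP12-1 by 1.47 ± 0.17 and the epimerase gene RPE by 0.99 ± 0.14. The interval lay within -0.5 to 0.5 for 3 members, and the 2 with the narrowest did not pass. The aldolase gene FBA3 was at -0.08 ± 0.09 (95% interval -0.29 to 0.13) and the transketolase gene TKL2 at -0.15 ± 0.09 (-0.34 to 0.05). The lowest member of the list stood at -0.28 and did not pass, and 1 member was called lower without glucose replicate 2.

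Photorespiration recovers the product of Rubisco's reaction with oxygen. Of its 13 tested genes 12 were higher in fructose and 0 lower (median 1.82). GOX2, a glycolate oxidase of the peroxisome, held 205, 167 and 218 CPM in fructose and 102, 101 and 108 CPM in glucose, a difference of 0.92 ± 0.11. GLDP2, which encodes the glycine decarboxylase P protein of mitochondria, differed by 0.60 ± 0.11. Of 6 carbonic anhydrase genes 3 were higher, CA2 by 2.47 ± 0.50, CA4 by 1.00 ± 0.18 and BCA6 by 0.47 ± 0.10, and 0 were lower, or 1 without fructose replicate 2. The summed level of the 6 overlapped between the groups, at 379, 500 and 232 CPM in fructose and 477, 473 and 403 CPM in glucose.

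Most chlorophyll synthesis genes were higher as well. Of 20 tested genes 15 were higher and 1 lower (median 1.55). CHLM, the methyltransferase of the magnesium branch, held 70.2, 48.3 and 82.2 CPM in fructose and 13.7, 22.8 and 19.7 CPM in glucose, a difference of 1.83 ± 0.25. The magnesium chelatase gene CHLD differed by 1.23 ± 0.16, the chlorophyll synthase gene CHLG by 1.51 ± 0.20 and HEME2 of the shared porphyrin path by 1.01 ± 0.13. The exception was HEMA2, a glutamyl-tRNA reductase gene, which fell by 0.73 on the log2 scale, and HEMB1 was at 0.12 ± 0.07 (95% interval -0.05 to 0.28).

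Factors that steer greening split. Of 11 tested genes 7 were higher and 3 lower. The phytochrome-interacting factors PIF4, PIF3 and PIF5, bHLH proteins known to hold back greening in the dark and to drive elongation, differed by 2.18 ± 0.29, 1.09 ± 0.14 and 0.96 ± 0.17, and PIF4 held 76.4, 62.3 and 82.0 CPM in fructose and 9.22, 23.7 and 15.7 CPM in glucose. GNC, a GATA factor that favours chlorophyll, differed by 1.203 ± 0.19. Lower in fructose were PIF7 at -1.10 ± 0.25 and HYH, a bZIP partner of HY5, at -1.002 ± 0.28, although without glucose replicate 1 the call of HYH was lost (edgeR adjusted p = 0.0586). Of 14 genes for chlorophyll breakdown and leaf senescence 5 were higher and 3 lower. The breakdown enzymes PAO and NOL differed by 0.97 ± 0.14 and 0.98 ± 0.15, the senescence factor NAP by 0.61 ± 0.10, and WRKY6 and SAG21 by -1.21 ± 0.21 and -1.10 ± 0.25.

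**Figure D2:**
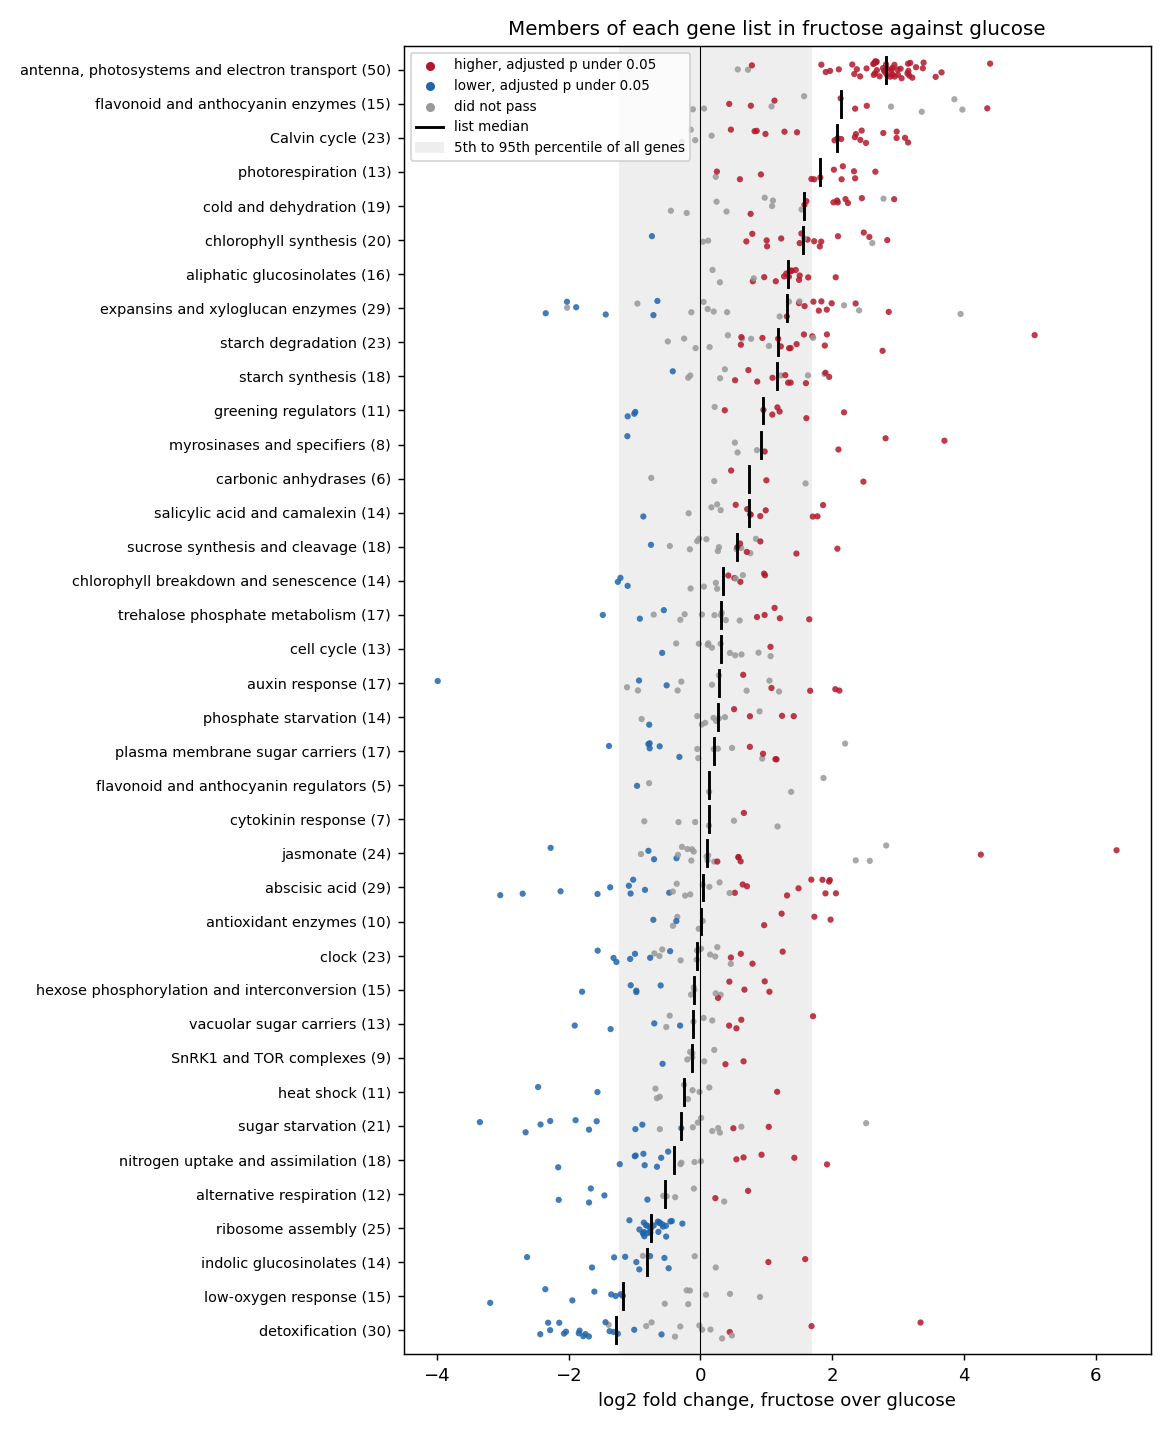
Log2 fold change of fructose over glucose for each tested member of 38 gene lists, ordered by the list median (black bar), with the number tested in brackets. Red points were higher and blue points lower at an adjusted p under 0.05, and the grey band spans the 5th to 95th percentile of all genes. Antenna, flavonoid enzyme and Calvin cycle genes lie at the top, with medians of 2.82, 2.13 and 2.08, and detoxification genes at the bottom, with -1.28.

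Starch genes were mostly higher in fructose, both those that build and those that break down the polymer. Of 18 synthesis genes 10 were higher and 1 lower (median 1.16). APL1, a large subunit of ADP-glucose pyrophosphorylase, the committed enzyme, held 11.3, 7.57 and 10.7 CPM in fructose and 2.51, 3.13 and 1.98 CPM in glucose, a difference of 1.95 ± 0.22 (edgeR adjusted p = 0.000688). Its relative APL2 fell by 0.42 on the log2 scale. The starch synthase gene SS1 differed by 0.73 ± 0.11. Plastid importers of glucose 6-phosphate did not pass, GPT1 at -0.15 ± 0.08 (95% interval -0.34 to 0.03) and GPT2 at -0.18 ± 0.34 (-0.96 to 0.59), and GPT2 stood at 181, 176 and 252 CPM in fructose and 208, 306 and 178 CPM in glucose, against 3.27, 3.08 and 7.96 CPM in mannitol. Of 23 degradation genes 14 were higher and 0 lower (median 1.18), a count of 9 without glucose replicate 3 and 8 without fructose replicate 3. The beta-amylase genes AT3G23920 and AT4G00490 differed by 0.94 ± 0.16 and 1.89 ± 0.38, and DPE1, a glucanotransferase of the chloroplast, by 1.22 ± 0.30.

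Flavonoid enzymes were uneven across libraries. Of 15 tested genes 7 were higher and 0 lower, and the median was 2.13. Set against the glucose mean, the list median was 1.91, -0.24 and 1.59 in the fructose libraries and -0.33, 0.58 and -0.35 in the glucose libraries, so fructose replicate 2 lay within the glucose range. The count was 12 without fructose replicate 2, 11 without glucose replicate 2, and 2 or 3 without any of the other 4 libraries. PAL1 and PAL2, the entry enzymes of phenylpropanoid synthesis, differed by 0.77 ± 0.21 and 0.44 ± 0.10, and the call of PAL1 was lost without glucose replicate 3. The chalcone isomerase gene AT3G55120 differed by 1.13 ± 0.32, a call lost without any of 4 libraries, among them glucose replicate 1. Of 5 regulators 1 was called, the repressor MYBL2, which fell by 0.96 on the log2 scale, while 1 regulator was called higher without glucose replicate 2 or fructose replicate 2.

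Sugar carriers had calls in both directions. Of 13 tested carriers of the vacuolar membrane 4 were higher and 4 lower in fructose, close to the shares of all genes. ERDL4 (AT1G19450, on chromosome 1 of TAIR10.1 from 6731411 to 6735024, minus strand), a sugar carrier of the vacuolar membrane, held 38.3, 37.4 and 33.9 CPM in fructose and 20.3, 23.8 and 27.1 CPM in glucose. The groups did not overlap, the difference was 0.62 ± 0.13 (edgeR adjusted p = 0.00418), and mannitol discs held 47.7, 45.8 and 37.3 CPM. Its close relative ERDL6 went the other way, with 21.96, 24.6 and 25.3 CPM in fructose and 69.8, 53.9 and 60.9 CPM in glucose, against 181, 166 and 175 CPM in mannitol. The fructose and glucose values of ERDL6 lay far apart, a difference of -1.36 ± 0.11 (edgeR adjusted p = 0.000383). Reads that fit both genes were not set apart here, so each level is uncertain.

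Other vacuolar carriers filled in the picture. The proton-coupled importers TMT1 and TMT2 (also known as TST1 and TST2) split, at -0.31 ± 0.10 and 0.55 ± 0.18, and both calls were lost without glucose replicate 1 or fructose replicate 3, that of TMT1 also without fructose replicate 2 and that of TMT2 without glucose replicate 3. Neither passed with the hexose libraries alone or with all 18 libraries in the fit, and TMT1 not with library size only. INT1, an inositol exporter, held 28.4, 18.8 and 29.8 CPM in fructose and 6.35, 9.56 and 7.59 CPM in glucose, a difference of 1.71 ± 0.20. ERD6, which gives the family its name, held 109, 178 and 73.0 CPM in fructose and 619, 303 and 425 CPM in glucose, a difference of -1.91 ± 0.36. Neither SWEET17, a fructose carrier, nor SWEET2 passed the test, with SWEET17 at 0.18 ± 0.10 (95% interval -0.04 to 0.40) and SWEET2 at -0.47 ± 0.25 (-1.02 to 0.08), although SWEET2 passed without glucose replicate 2. SWEET16 had 1 count in each hexose group and 2.70, 2.06 and 2.03 CPM in mannitol, so its fold was left out. Without glucose replicate 1, glucose replicate 3 or fructose replicate 3 the count of higher vacuolar carriers was 2.

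Of 17 carriers of the plasma membrane 4 were higher and 6 lower, and the count of higher ones was 2 without fructose replicate 1 or 3. STP1, a hexose importer, stood at 16.2, 13.3 and 14.7 CPM in fructose and 18.1, 14.5 and 12.7 CPM in glucose, against 1446, 1446 and 1567 CPM in mannitol. The hexose groups overlapped, and the difference of -0.03 ± 0.14 had a 95% interval of -0.35 to 0.29. STP13, an importer known from stress and defence, held 165, 279 and 159 CPM in fructose and 629, 469 and 478 CPM in glucose, a difference of -1.39 ± 0.26. STP7, which takes up pentoses, differed by 1.14 ± 0.20, the polyol carrier gene PMT5 by -0.79 ± 0.17, and the efflux carrier genes SWEET1 and SWEET11 by 1.16 ± 0.27 and -0.77 ± 0.16. SUC7, a gene of the sucrose symporter family with close copies, was among the 15 lowest genes, at -2.99 ± 0.36.

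The list of hexose phosphorylation and interconversion was as mixed, with 5 of 15 genes higher and 5 lower. Not all of its members phosphorylate hexoses, the isomerase gene PGI1 among them. HXK1, the glucose sensor, was at 0.31 ± 0.14 and did not pass (edgeR adjusted p = 0.0934), with 75.5, 74.2 and 88.6 CPM in fructose and 56.7, 79.5 and 56.4 CPM in glucose, and it passed without glucose replicate 2. HXK2 differed by 0.98 ± 0.16, and HKL1, a hexokinase-like protein without known catalytic activity, by -0.97 ± 0.10. Genes annotated with the pfkB sugar kinase family, to which fructokinases belong, split: AT1G66430 differed by 1.05 ± 0.16, while AT5G51830 held 99.8, 179.9 and 80.0 CPM in fructose and 542, 351 and 355 CPM in glucose, against 13.5, 10.8 and 13.2 CPM in mannitol, a difference of -1.80 ± 0.31. FINS1 held 8.06, 7.57 and 10.1 CPM in fructose and 3.94, 7.02 and 5.22 CPM in glucose, against 92.2, 93.1 and 72.6 CPM in mannitol, and its difference of 0.67 ± 0.21 was lost without glucose replicate 1, glucose replicate 3 or fructose replicate 3. ANAC089 was at -0.14 ± 0.11 with a 95% interval of -0.38 to 0.10. The plastid isomerase gene PGI1, which joins fructose and glucose phosphates, differed by 0.27 ± 0.07, a call lost without fructose replicate 1.

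**Figure D3:**
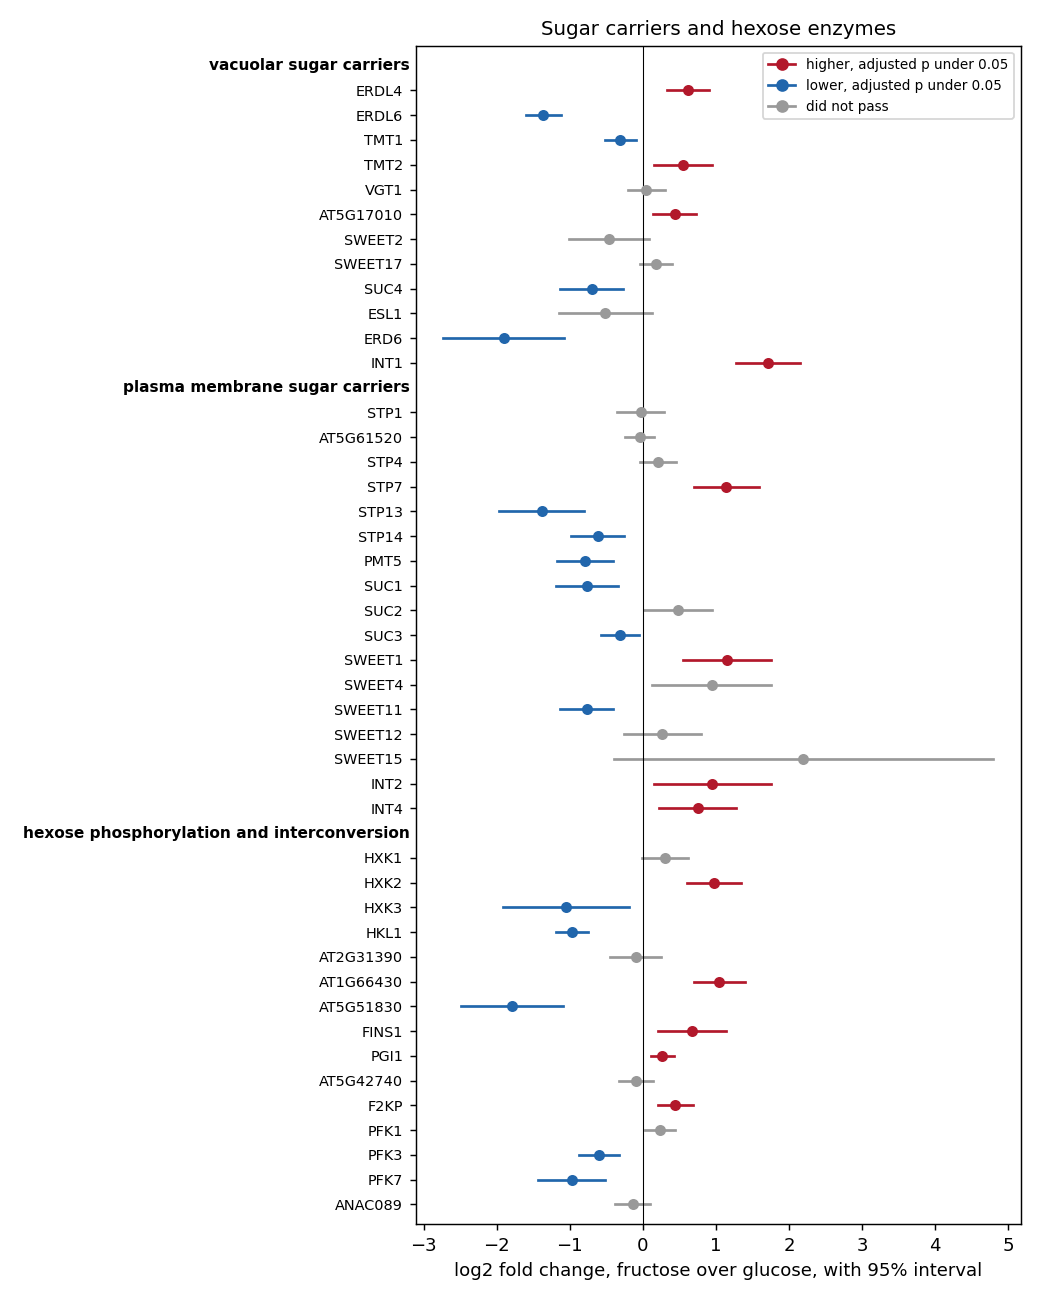
Log2 fold change of fructose over glucose with its 95% interval. Drawn are sugar carriers of the vacuole and of the plasma membrane and the list of hexose phosphorylation and interconversion. SWEET16, with 1 count in each group, is not drawn. ERDL4 lies at 0.62 and ERDL6 at -1.36, and the intervals of STP1 and ANAC089 span 0.

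Of 18 sucrose genes 6 were higher and 1 lower (median 0.56). The sucrose phosphatase gene AT2G35840 differed by 0.91 ± 0.15, and C/VIF1, an invertase inhibitor, by 1.46 ± 0.27. Cytosolic invertases split in their calls, CINV2 at 0.71 ± 0.18 and CINV1 at -0.02 ± 0.08 with a 95% interval of -0.19 to 0.16. CWINV1, the cell wall invertase, fell by 0.75 on the log2 scale. Of 17 genes of trehalose phosphate metabolism, whose product signals sucrose status, 5 were higher and 3 lower, and the first count was 3 without glucose replicate 1 or fructose replicate 3. TRE1, which splits trehalose, held 29.6, 36.0 and 26.9 CPM in fructose and 112, 76.9 and 69.0 CPM in glucose, a difference of -1.48 ± 0.18. TPS6 and TPS11, regulatory members of the synthase family, differed by 0.98 ± 0.14 and -0.55 ± 0.09. Of 9 SnRK1 and TOR subunits 2 were higher, KIN10, a catalytic subunit of SnRK1, at 0.66 ± 0.12 and LST8-1 of the TOR complex at 0.38 ± 0.09, and AKINBETA1 was lower at -0.57 ± 0.15.

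Of 21 tested genes that leaves use under sugar shortage, 10 were lower and 2 higher in fructose (median -0.29). ERD5 (also known as PRODH1), the proline dehydrogenase, held 28.6, 33.8 and 22.3 CPM in fructose and 174, 124 and 113 CPM in glucose, against 1011, 801 and 983 CPM in mannitol. Fructose and glucose did not overlap, and the difference was -2.28 ± 0.20 (edgeR adjusted p = 0.000487). DIN10, a raffinose synthase homologue, differed by -2.42 ± 0.25, with 49.2, 34.5 and 53.1 CPM in fructose and 337, 219 and 179 CPM in glucose. AT3G15450, annotated as an aluminum induced protein, differed by -3.35 ± 0.38, and the transcription factor gene BZIP53 by -0.99 ± 0.13. DIN2, a beta-glucosidase, differed by -2.65 ± 0.77, a call lost without fructose replicate 1. Going the other way, MCCB and MCCA, the subunits of methylcrotonyl-CoA carboxylase in leucine breakdown, differed by 1.04 ± 0.15 and 0.50 ± 0.11. ASN1, the asparagine synthetase known to follow carbon shortage, stood at 1.11, 0.0485 and 0.561 CPM in fructose and 0.102, 0.181 and 0 CPM in glucose, against 882, 790.4 and 847 CPM in mannitol. Both hexose levels of ASN1 were near 0 beside mannitol, and the difference between them did not pass (edgeR adjusted p = 0.0605), although it did without fructose replicate 2, with DESeq2 and with all 18 libraries in the fit. The motif TATCCA, known from rice amylase promoters under sugar starvation, was in 2 of the 21 promoters of the list (9.52%), against 14.2% of all promoters read.

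Ribosome assembly was lower in fructose across its list. These genes encode nucleolar proteins that process ribosomal RNA and build the subunits, and in plants they respond to sugar and TOR. All 25 tested members were lower, against 24.6% of all genes, with log2 fold changes from -1.08 to -0.27 (median -0.75), and in all 25 every fructose library lay below every glucose library. PES (AT5G14520; chromosome 5, 4680540 to 4684472, minus strand), a nucleolar protein needed for the large subunit, held 129, 152 and 115 CPM in fructose and 326, 238 and 270.2 CPM in glucose, a difference of -1.08 ± 0.14 (edgeR adjusted p = 0.000937), and 32.6, 35.1 and 30.8 CPM in mannitol. The nucleolar GTPase gene NSN1 differed by -0.92 ± 0.14, the nucleolin gene NUC2 by -0.80 ± 0.13 and REIL2, a late maturation factor, by -0.87 ± 0.12. The member nearest to 0 was REIL1, at -0.27 ± 0.09, and its call was lost without glucose replicate 1 or without any of the fructose libraries. On the scale of the list, set against the glucose mean, the medians were -0.71, -0.54 and -0.89 in fructose, 0.22, -0.23 and 0.01 in glucose and -3.47, -3.31 and -3.34 in mannitol.

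Promoters of this list were searched for the telo box AAACCCT and the site II motif TGGGCC, both known from promoters of plant ribosome genes. The telo box was in 7 of 25 members (28%), against 6.50% of all promoters read, and site II in 13 (52%), against 17.1%. REIL2 (chr2:10402935-10403184, minus strand, TAIR10.1) holds a match to each, in capitals. The telo box match reads on the opposite strand.
REIL2: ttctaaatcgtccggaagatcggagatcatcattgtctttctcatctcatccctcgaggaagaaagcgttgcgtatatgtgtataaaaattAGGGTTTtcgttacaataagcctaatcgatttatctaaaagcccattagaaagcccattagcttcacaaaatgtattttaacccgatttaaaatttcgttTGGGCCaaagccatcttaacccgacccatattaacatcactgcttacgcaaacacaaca

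Fermentation and low-oxygen genes were lower in fructose where they passed, 8 of 15 against 0 higher (median -1.18), but 1 member passed as higher without glucose replicate 1 and 2 without fructose replicate 2. PDC1 (AT4G33070; chromosome 4, 15952257 to 15954803, minus strand), a pyruvate decarboxylase that opens the path to ethanol, held 27.1, 33.9 and 21.4 CPM in fructose and 373, 179 and 199 CPM in glucose, against 0.172, 0.343 and 0.136 CPM in mannitol. Glucose stood well above fructose in every library, a difference of -3.19 ± 0.31 (edgeR adjusted p = 0.000716). PDC2 differed by -1.21 ± 0.12 with 36.3, 48.4 and 39.2 CPM in fructose and 97.5, 97.7 and 91.4 CPM in glucose, and HRE2, an ERF factor of hypoxia, by -2.35 ± 0.41. The lactate dehydrogenase gene AT4G17260 differed by -1.94 ± 0.35.

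The list of respiratory bypass genes had 2 of 12 genes higher and 5 lower (median -0.54). Bypass enzymes oxidise NADH or ubiquinol without pumping protons, and AT2G21640, among the lower genes of the list, is not annotated as one. AOX1A, the stress-induced alternative oxidase, held 411, 634 and 225 CPM in fructose and 1646, 1217 and 1158 CPM in glucose, a difference of -1.66 ± 0.34. The dehydrogenase gene NDB4 differed by -1.69 ± 0.26 and AT2G21640, annotated as a marker of the oxidative stress response, by -1.46 ± 0.19. NDB1 was higher at 0.72 ± 0.19. NDC1 was at 0.23 ± 0.08, a call that held under 4 of 16 alternatives and was lost without any library other than glucose replicate 2. The count of higher genes was 4 without glucose replicate 2 and 1 without fructose replicate 1 or 3. Transcripts of the mitochondrial genome took 0.0160%, 0.0221% and 0.0136% of counts in fructose and 0.0549%, 0.0480% and 0.0560% in glucose. Glucose was thus 3.07-fold higher without overlap, and the exact two-sided permutation test gave 0.1, the smallest p that 3 against 3 libraries allow. Counts of organelle genes depend on how the RNA was selected, which is not given in the sources used here.

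Detoxification genes formed the list with the lowest median, -1.28, with 17 of 30 lower and 3 higher. Glutathione transferases and glycosyltransferases tag foreign and reactive compounds, and MATE carriers export them. GSTU24 held 166, 261 and 122 CPM in fructose and 819, 660.3 and 476 CPM in glucose, against 5.11, 5.31 and 5.33 CPM in mannitol, and the hexose groups differed by -1.83 ± 0.28 without overlap (edgeR adjusted p = 0.00175). GSTU11 and GSTU1 differed by -1.25 ± 0.14 and -2.07 ± 0.35, and the MATE carrier gene AT2G04050 by -1.78 ± 0.32. UGT73B4 and UGT73B5, glycosyltransferase genes outside the list and among the 15 lowest genes, differed by -3.10 ± 0.38 and -2.72 ± 0.39. The annotated span of UGT73B4 lies within that of UGT73B5 on the same strand, so their values may not be separate measurements. Against the list, GSTU16 was higher at 0.45 ± 0.09 and GSTU26, at under 1 CPM in all hexose libraries, at 3.34 ± 0.65. Many of these genes lie in tandem arrays of close copies, so reads may be shared among neighbours.

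The 2 branches of glucosinolate synthesis, defence compounds of the cabbage family, had most of their calls in opposite directions. Of 16 aliphatic (methionine-derived) genes 13 were higher in fructose and 0 lower (median 1.32), whereas of 14 indolic (tryptophan-derived) genes 2 were higher and 9 lower (median -0.82). CYP79F1 (AT1G16410; chromosome 1, 5608682 to 5612064, plus strand), the first enzyme of the aliphatic core, held 245, 206 and 328 CPM in fructose and 41.0, 102 and 131 CPM in glucose, against 108, 76.5 and 70.3 CPM in mannitol. Its fructose libraries lay above both other groups, and the difference from glucose was 1.51 ± 0.40 (edgeR adjusted p = 0.0148). MAM1, which lengthens the methionine chain, CYP83A1, the next core enzyme, and BASS5, a plastid keto acid carrier, differed by 1.64 ± 0.44, 1.498 ± 0.38 and 1.34 ± 0.37. These calls sat close to the threshold: without fructose replicate 3 the count was 0 of 16, with CYP79F1 at an edgeR adjusted p of 0.0599, and without fructose replicate 1 it was 7.

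On the indolic side, MYB51, a regulator of the branch, held 37.4, 46.1 and 31.9 CPM in fructose and 113, 80.6 and 92.5 CPM in glucose, a difference of -1.31 ± 0.15 (edgeR adjusted p = 0.000767). CYP79B2, the first enzyme, differed by -0.97 ± 0.15, the sulfotransferase gene SOT16 by -1.14 ± 0.18, the transferase gene GSTF10 by -0.93 ± 0.14 and CYP81F2, which modifies the indole ring, by -2.63 ± 0.47. MYB34, another regulator of the branch, rose, with 11.7, 9.22 and 14.4 CPM in fructose and 1.54, 5.21 and 4.93 CPM in glucose, a difference of 1.59 ± 0.39. CYP79B3 was also higher at 1.03 ± 0.36, a call lost without fructose replicate 1 or 3 or glucose replicate 1 or 2, with no filter, with the replicate block and with the hexose libraries alone, which left MYB34 as the 1 higher gene. Of 8 genes for myrosinases and specifier proteins, which release and steer the breakdown products, 4 were higher and 1 lower. The epithiospecifier modifier ESM1 differed by 0.98 ± 0.16 and the nitrile specifier gene NSP5 by -1.11 ± 0.27. The binding protein MBP1 differed by 3.70 ± 1.02, a call lost without glucose replicate 3 or fructose replicate 3, and the count of higher members was 1 or 2 without any library other than glucose replicate 2 or fructose replicate 2.

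**Figure D4:**
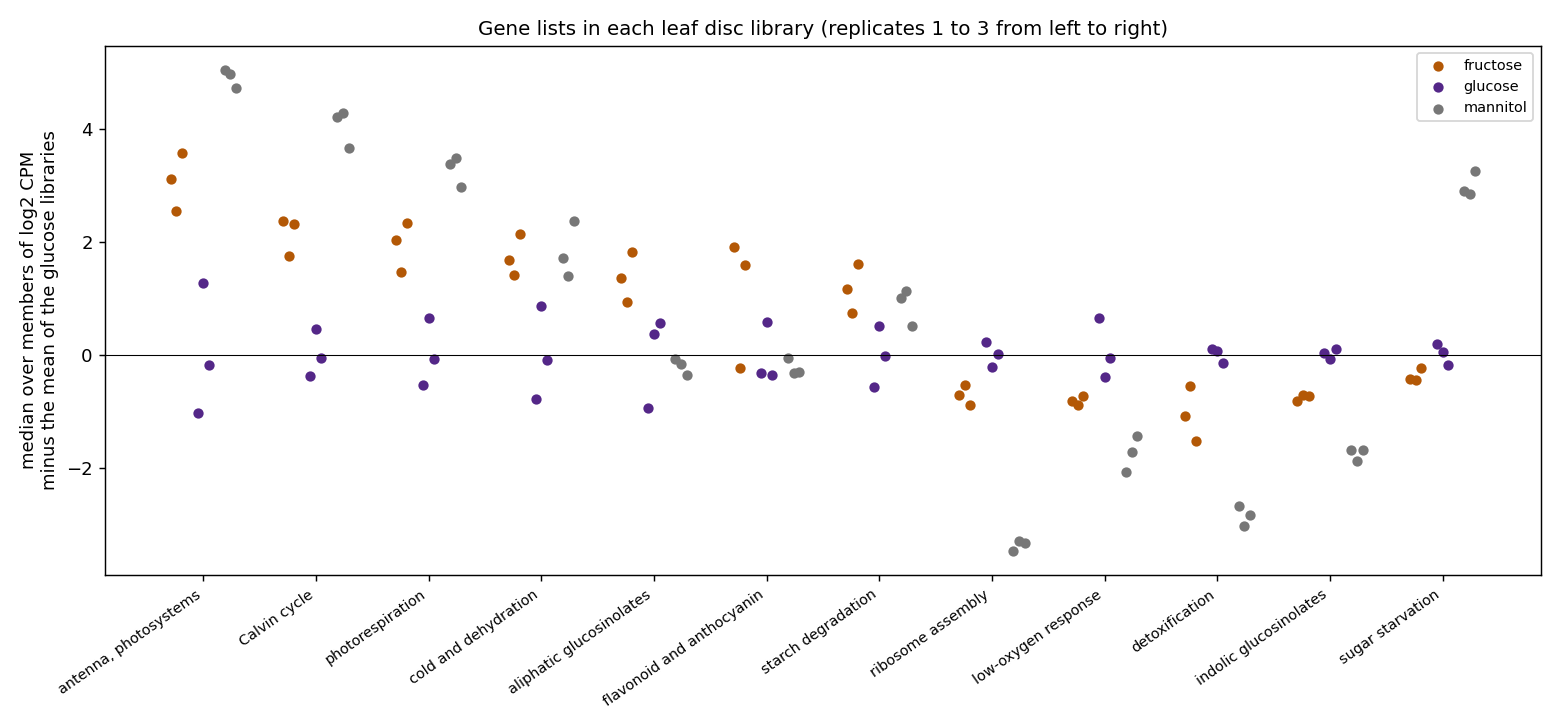
Median over the tested members of 12 gene lists in each library, as log2 CPM minus the mean of the 3 glucose libraries, for fructose, glucose and mannitol. Antenna genes stand at 3.12, 2.54 and 3.58 in fructose, -1.03, 1.27 and -0.18 in glucose and 5.04, 4.97 and 4.72 in mannitol, and aliphatic glucosinolate genes at 1.36, 0.94 and 1.82 in fructose against -0.95, 0.36 and 0.57 in glucose.

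Cold and dehydration genes were higher in fructose, 10 of 19 against 0 lower (median 1.58), although the count was 5 without fructose replicate 3 and 6 without glucose replicate 3. COR15A (AT2G42540; chromosome 2, 17710441 to 17712330, minus strand), which protects chloroplast membranes, held 47.3, 51.7 and 89.3 CPM in fructose and 4.76, 20.4 and 9.09 CPM in glucose, a difference of 2.45 ± 0.49 (edgeR adjusted p = 0.00491), and 65.0, 67.6 and 52.9 CPM in mannitol. COR413IM1 of the inner envelope differed by 2.02 ± 0.38, the dehydrin gene ERD10 by 1.58 ± 0.33 and KIN2 by 2.09 ± 0.47. None of the cold-response factor genes CBF1, CBF2 and CBF3, picked out after their values were seen, passed the test, and their levels lay between 0 and 1.46 CPM in the hexose libraries. DREB2C, an AP2 factor gene of the related DREB2 group, was among the 15 lowest genes, with 4.96, 11.9 and 3.78 CPM in fructose and 72.8, 43.2 and 65.1 CPM in glucose, a difference of -3.14 ± 0.42. Promoters of the list were searched for the cores of the abscisic acid element (ACGTG) and of the dehydration element (CCGAC), motifs added after the values were seen. The first was in 10 of 19 members (52.6%), against 23.3% of all promoters, and the second in 7 (36.8%), against 13.2%. COR15A (chr2:17712331-17712580, minus strand, TAIR10.1) holds 2 of each in capitals, the pair of ACGTG cores overlapping in CACGTG.
COR15A: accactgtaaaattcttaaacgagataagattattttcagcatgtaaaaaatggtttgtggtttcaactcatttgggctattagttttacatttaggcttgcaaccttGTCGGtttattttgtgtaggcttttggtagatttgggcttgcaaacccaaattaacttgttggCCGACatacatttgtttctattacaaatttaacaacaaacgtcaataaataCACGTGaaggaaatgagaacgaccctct

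Abscisic acid genes had calls in both directions. Receptors of the PYR/PYL family bind the hormone and then block PP2C phosphatases, which frees SnRK2 kinases to act on bZIP factors. Over all 29 tested genes 11 were higher and 10 lower (median 0.04), and the first count was 7 without glucose replicate 3 or fructose replicate 3. These counts were 37.9% and 34.5% of the list, against 24.7% and 24.6% of all genes. Of 7 phosphatase genes 7 were higher, from 0.52 (ABI2) to 2.06 (PP2CA), but 4 were without glucose replicate 3 or fructose replicate 3 and with no filter, and 5 with the hexose libraries alone or all 18 libraries. ABI2 passed under 7 of 16 alternatives, and not without any library other than glucose replicate 2 or fructose replicate 2. Of 9 receptor genes 0 were higher and 6 lower, with 1 higher without fructose replicate 2. PYL6 held 3.61, 9.95 and 3.93 CPM in fructose and 61.1, 28.5 and 52.9 CPM in glucose, against 0.172, 0.286 and 0.0452 CPM in mannitol, and fructose and glucose differed by -3.04 ± 0.45 without overlap (edgeR adjusted p = 0.00180). PYL5 differed by -2.70 ± 0.33, with 15.4, 28.05 and 13.8 CPM in fructose and 167, 89.3 and 114 CPM in glucose. The roles were grouped after the values were seen.

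Elsewhere in the pathway, ABA1, an enzyme of the xanthophyll step of synthesis, held 269, 213 and 330.4 CPM in fructose and 66.3, 119 and 68.1 CPM in glucose, a difference of 1.68 ± 0.24. CYP707A1, which breaks the hormone down, differed by -1.08 ± 0.18. Among bZIP factors ABI5 differed by -1.56 ± 0.23, while ABF4 was at -0.23 ± 0.10 and did not pass, although it did without glucose replicate 2, with RLE scaling, with DESeq2 and without the 100 most abundant genes. The kinase gene SNRK2.2 was at -0.15 ± 0.09 (95% interval -0.36 to 0.06). ABR1, an AP2 factor known as a repressor of the response, was among the 15 lowest genes at -2.57 ± 0.41.

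**Figure D5:**
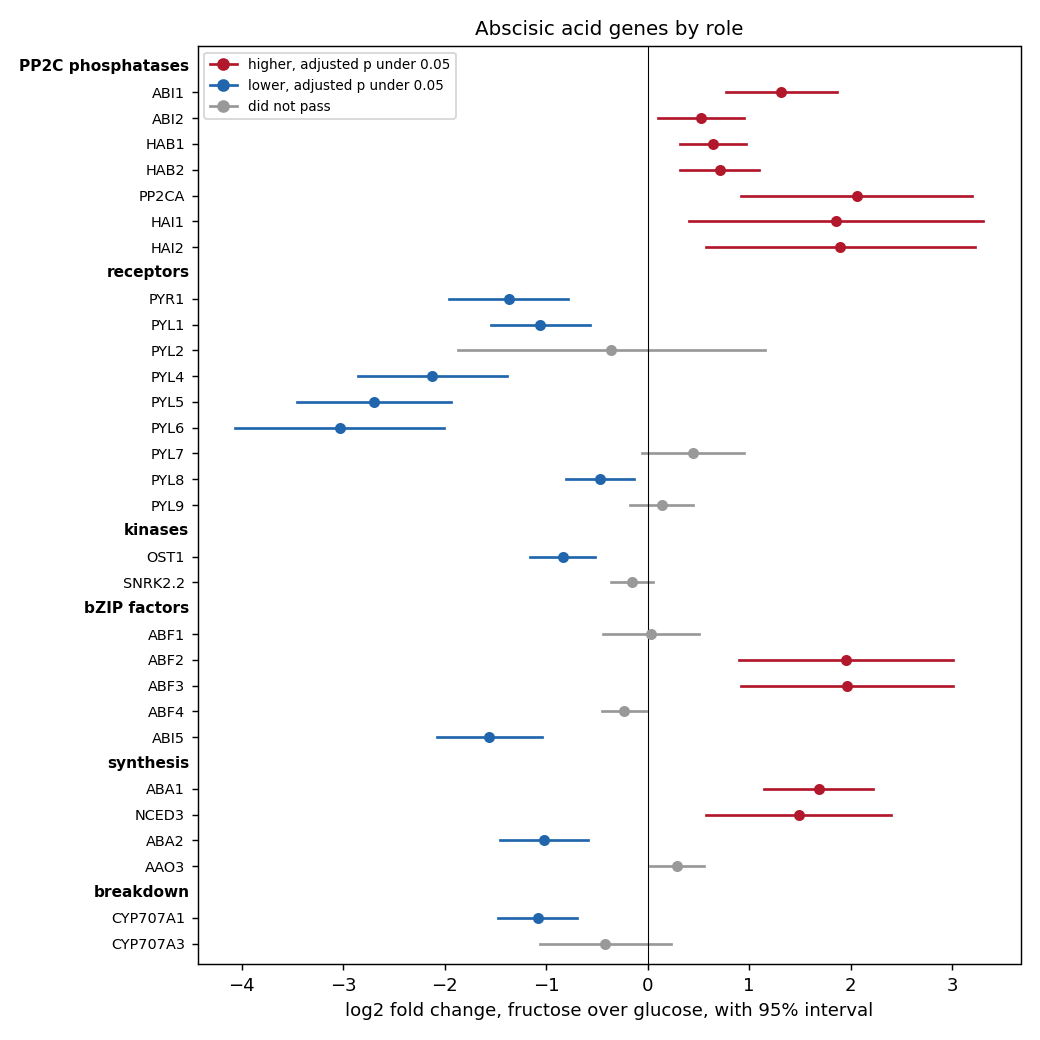
Log2 fold change of fructose over glucose with its 95% interval for 29 abscisic acid genes, grouped by role. All 7 PP2C phosphatase genes lie above 0, from 0.52 to 2.06, and PYL6 lies lowest at -3.04.

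Of 18 nitrogen genes 5 were higher and 9 lower in fructose (median -0.39), a lower count of 5 without fructose replicate 1 or 3. The 9 lower genes, 50% of the list against 24.6% of all genes, are not named here, so the examples do not show the list's main direction. The higher ones included the chloroplast enzymes GLN2, a glutamine synthetase with 628, 591 and 643 CPM in fructose and 180.1, 267 and 245 CPM in glucose, at 1.43 ± 0.16, and GLU1, the ferredoxin-dependent glutamate synthase, at 0.93 ± 0.15. The cytosolic GLN1;2 and the nitrate carrier gene NRT1.5 differed by 0.66 ± 0.10 and 1.92 ± 0.34. NIR1, the nitrite reductase, was at -0.09 ± 0.13 (95% interval -0.38 to 0.20). Of 14 phosphate starvation genes 4 were higher and 1 lower. The phosphate exporter gene PHO1 differed by 1.42 ± 0.30, the sulfolipid enzyme gene SQD1 by 1.24 ± 0.26, the importer gene PHT1;4 by 0.75 ± 0.18 and PLDP2, a phospholipase D, by -0.78 ± 0.20. The count of higher phosphate genes was 7 without glucose replicate 2, and that of lower ones 2 without glucose replicate 3 or fructose replicate 3.

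Of 14 genes for salicylic acid and camalexin 9 were higher and 1 lower (median 0.73), with 4 higher without glucose replicate 1, glucose replicate 3 or fructose replicate 1. ICS1, the isochorismate synthase, held 22.5, 20.7 and 19.5 CPM in fructose and 11.9, 10.8 and 8.75 CPM in glucose, a difference of 0.99 ± 0.12 (edgeR adjusted p = 0.000873). The immune regulators PAD4 and EDS1 differed by 0.91 ± 0.11 and 0.76 ± 0.11 and the glucanase gene PR2 by 1.78 ± 0.42. The camalexin enzyme gene PAD3 was lower at -0.87 ± 0.27, a call lost without glucose replicate 1 or fructose replicate 1 or 3, each of which left 0 lower. Of 24 jasmonate genes 6 were higher and 4 lower, near or under the shares of all genes, with 1 or 2 higher without any library other than glucose replicate 2 or fructose replicate 2. JAR1, which conjugates the hormone to isoleucine, differed by 0.61 ± 0.11, the synthesis gene AOC2 by -0.79 ± 0.15, the repressor gene JAZ1 by -0.70 ± 0.14 and the defensin gene PDF1.1 by -2.27 ± 0.38. JAL23 and BGLU18, a lectin and a beta-glucosidase, were among the 15 highest genes at 3.77 ± 0.95 and 3.601 ± 0.99, and both calls were lost without fructose replicate 3, that of BGLU18 also without glucose replicate 3.

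Auxin genes had calls in both directions, near the shares of all genes, and cytokinin genes few. GH3.2 (AT4G37390), which conjugates auxin to amino acids, had the lowest log2 fold change among the genes named by rule, with 3.89, 4.08 and 1.83 CPM in fructose and 46.2, 89.1 and 18.3 CPM in glucose, against 0.115, 0 and 0.0452 CPM in mannitol. Glucose libraries spread widely but stayed above fructose, and the difference was -3.99 ± 0.60 (edgeR adjusted p = 0.00195). Over the 17 auxin genes 5 were higher and 3 lower, with GH3.17 at -0.93 ± 0.19, IAA16 at -0.51 ± 0.10 and IAA7 at 0.65 ± 0.16. Removing glucose replicate 1 left 1 higher auxin gene, removing glucose replicate 2 gave 8, and removing glucose replicate 3, fructose replicate 1 or fructose replicate 3 left 2, while 5 were lower without glucose replicate 3. Of 7 type-A cytokinin response genes 1 was higher, ARR8 at 0.66 ± 0.13, and 3 without glucose replicate 3.

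Growth genes were divided in the cell wall list. Of 29 expansin and xyloglucan enzyme genes 10 were higher and 6 lower (median 1.31), with 6 higher without fructose replicate 1 and 5 without fructose replicate 3. The summed level of the list went the other way, at 1081, 1081 and 1048 CPM in fructose and 1646, 1611 and 1381 CPM in glucose. Set against the glucose mean, the list median overlapped between the groups, at 0.34 in fructose replicate 2 and 0.38 in glucose replicate 2. XTH7 and XTH8 differed by 2.86 ± 0.49 and 2.36 ± 0.43, and XTH22, also known as the touch gene TCH4, and XTH24 by -2.02 ± 0.19 and -1.88 ± 0.30. XTH22 held 8.75, 11.7 and 7.60 CPM in fructose and 37.4, 43.4 and 33.1 CPM in glucose. Of 13 cell cycle genes 1 was higher, the replication helicase gene MCM7 at 1.06 ± 0.21, and 1 lower, the D-type cyclin gene CYCD2;1 at -0.58 ± 0.11. Each of these counts was 2 without glucose replicate 2, and the first was also 2 without glucose replicate 3.

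Clock and stress lists had calls in both directions. Of 23 clock genes 4 were higher and 7 lower (median -0.06). LUX and ELF3 of the evening complex differed by -1.27 ± 0.21 and -0.76 ± 0.14, the pseudo-response regulator gene PRR3 by -1.32 ± 0.26, the coactivator gene LNK1 by 0.79 ± 0.12 and the DOF factor gene AT5G62430 by 1.25 ± 0.25. Of 11 heat shock genes HSA32 was higher at 1.17 ± 0.39, a call lost without any library other than glucose replicate 2 or fructose replicate 2. Lower were the heat shock factor gene HSFA7A at -2.46 ± 0.40 and HSP23.6-MITO at -1.56 ± 0.42, the second of which was lost without fructose replicate 1 or 3. Of 10 antioxidant genes 4 were higher and 2 lower, with the thylakoid peroxidase gene TAPX at 1.98 ± 0.27, the iron superoxide dismutase gene FSD1 at 1.23 ± 0.19, and the catalase genes AT4G35090 and CAT1 at 0.97 ± 0.18 and -0.71 ± 0.11. The lower count was 1 without glucose replicate 1 or fructose replicate 1 or 3.

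Of the 15 lowest genes named by rule, 4 belong to none of these groups. MIOX2, an inositol oxygenase, held 1.62, 0.679 and 0.935 CPM in fructose and 18.5, 10.1 and 14.8 CPM in glucose, against 130.0, 136 and 196 CPM in mannitol, and differed between the hexoses by -3.74 ± 0.35 without overlap. RHD2, an NADPH oxidase known from root hairs, was at -2.66 ± 0.56 and near 0 in mannitol. SRO3 and PUP18, a purine permease gene, differed by -2.89 ± 0.39 and -2.67 ± 0.55.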

How the data were processed

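Whole-number read counts per gene came as deposited, 1 column per library. Reads were cleaned with fastp, mapped with HISAT2 2.0.5 against TAIR10 and passed to StringTie 1.3.3, per the submitters' processing notes. Libraries were directional, from 50 mg of tissue, per the labels' protocols. Which program counted reads, and with which strand option, is not given in the sources used here, so reads of a gene and its antisense partner may not be told apart. Counts without molecular identifiers are not independent molecules.

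Groups came from the labels. The 9 disc libraries entered 1 edgeR 4.0.16 quasi-likelihood fit (R 4.3.3, robust, TMM scaling, filterByExpr, 6 residual degrees of freedom), which kept 18784 of 32833 genes, with Benjamini-Hochberg adjustment over all of them. Standard errors were taken as the size of the log2 fold change over the square root of F, and CPM were TMM-scaled. The fit was tested on simulated data in which far fewer genes changed than were called here. That test therefore does not measure the error of the calls in these data. The exact permutation test used scipy 1.17.1. Replicates differed beyond counting error, with a chi-square of 19.0 to 60.2 per degree of freedom over 6 pairs. The labels do not say that a replicate number marks libraries that belong together, so the main fit did not pair them. Names and promoters came from the RefSeq annotation of TAIR10.1, found for 32548 loci, and the 285 others held 0.0375% of counts. The 38 gene lists and 7 marker lists were written by hand, and the members and lists were chosen with earlier results of these data known. Genes were named by rule: the 15 called genes at either end of the log2 fold change (those with a symbol, a mean of at least 5 CPM and groups that do not overlap), 14 sugar genes, and, per list, up to 4 called members with the smallest p, up to 2 called against the trend, and up to 2 narrow intervals within -0.5 to 0.5. Alternatives were 2 scalings, DESeq2 1.42.0, limma-voom 3.58.1, filters, thresholds, a replicate block, other sets of libraries and each library left out.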

Additional observations from a re-analysis of the deposited data

How the results depend on the processing

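With the replicate number as a block, 4003 genes were higher and 4023 lower in fructose. Deviations of same-numbered libraries had correlations of -0.03, -0.43 and -0.03, and those of unlike-numbered ones ranged from -0.46 to 0.45. With 3 libraries per group these values are tied to each other. They cannot tell whether a number marks a shared plant, day or batch. Under 2 scalings, DESeq2, limma-voom, 2 filters, the 6 hexose libraries alone, all 18 libraries and without the 100 most abundant genes, counts ranged from 4097 to 4971 higher and from 3956 to 5251 lower, and the share of calls that were higher from 45% to 55.7%. Without 1 library, 3188 to 4844 genes were higher and 3317 to 4738 lower. A fold of at least 2 left 1975 higher and 1226 lower, and an adjusted p under 0.01 left 2654 and 2809. Among genes that had not passed, STP1 turned to a log2 fold change of 0.026 with library size only and lay between -0.14 and 0.11 when 1 library was left out, above 0 without glucose replicate 1 or fructose replicate 2. CINV1 turned to 0.034 with library size only and ranged from -0.068 to 0.023, above 0 without fructose replicate 1, and GPT2 ranged from -0.37 to 0.070, above 0 without glucose replicate 2. The abscisic acid median turned to -0.01 with RLE scaling. With the block 4 flavonoid enzyme, 5 salicylic acid, 3 jasmonate and 2 myrosinase genes were higher, and without the 100 most abundant genes, which removes members, 24 antenna genes. Calls of named genes were also lost as follows: with no filter ABI2, CYP79B3, DIN2 and NDC1; with the block ABI2, BGLU18, CYP79B3, HSA32, NDC1 and PAD3; with the hexose libraries alone CYP79B3, DIN2, HSA32, MBP1, NDC1, TMT1 and TMT2. With all 18 libraries ABI2, GSTU16, JAZ1, NAP, NDC1, PAD3, PAL2, PGI1, PHT1;4, TMT1 and TMT2 did not pass. RLE scaling and removal of the 100 most abundant genes ended the calls of ABI2 and NDC1, DESeq2 that of NDC1, library size only those of REIL1 and TMT1, and limma-voom that of JAL23. LHCB4.3 and LHCB7 passed with library size only, and LHCB1.4 with limma-voom and with all 18 libraries. With the hexose libraries alone 8 aliphatic glucosinolate, 4 flavonoid enzyme, 3 jasmonate and 1 myrosinase genes were higher. With all 18 libraries 11 flavonoid enzyme, 5 salicylic acid, 3 jasmonate and 3 senescence genes were higher and 2 jasmonate genes lower, and with no filter 2 myrosinase genes were higher. Counts of 0 to 2 members moved by 1 under several settings. Of markers, 1 guard cell gene was higher with the block, 5 epidermis genes with limma-voom and 0 mesophyll genes without the 100 most abundant genes. The cause of these shifts was not tested. Depth limits genes near 0, such as SWEET16 and the CBF genes.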

Other observations

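Gene families taken by name from the annotation gave further groups, whose example genes were chosen after their values were seen. Family counts and these examples come from the main fit alone, and no library was left out for them. Plasma membrane aquaporins, which pass water, were higher in fructose for 10 of 11 genes and lower for 0 (median log2 fold change 1.21), against 24.7% of all genes higher. PIP2A held 708, 474 and 839 CPM in fructose and 86.4, 324 and 173 CPM in glucose, against 2156, 1875 and 1365 CPM in mannitol, a difference of 1.79 ± 0.45 (log2 fold change ± SE), and PIP2E differed by 0.85 ± 0.13. PIP2;4 was at -0.09 ± 0.43.

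WRKY transcription factors, many of which act in defence, had 5 of 48 genes higher and 20 lower (median -0.34). WRKY40 held 44.8, 77.4 and 32.0 CPM in fructose and 177, 144 and 137 CPM in glucose, against 8.89, 7.65 and 8.18 CPM in mannitol, a difference of -1.57 ± 0.28 (edgeR adjusted p = 0.00316), and WRKY15 and WRKY45 differed by -1.38 ± 0.19 and -1.63 ± 0.22. WRKY60, a close relative of WRKY40, was higher at 1.24 ± 0.18. Of 40 UGT glycosyltransferase genes 7 were higher and 20 lower (median -0.61). UGT73C7 held 6.90, 10.9 and 5.65 CPM in fructose and 43.9, 50.0 and 36.5 CPM in glucose, a difference of -2.48 ± 0.23, and UGT88A1 differed by 2.01 ± 0.24.

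Genes annotated as ribosomal proteins had 28 of 276 higher and 115 lower (median -0.25). Higher ones included the chloroplast proteins RPL21C at 1.16 ± 0.14 and PRPL35 at 1.23 ± 0.16. Pentatricopeptide genes, whose products handle organelle RNA, had 22 of 236 higher and 65 lower (median -0.30), and proteasome subunits 5 of 34 higher and 6 lower (median 0.11).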
